A study of Mus musculus with 22 samples.

Results

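Oxidative phosphorylation is carried out by 5 protein complexes of the inner mitochondrial membrane, and most of their subunits are encoded by nuclear genes. The genes described here are the protein-coding mouse genes whose symbols begin with Nduf, Uqcr, Atp5, Cox4i, Cox5, Cox6, Cox7 or Cox8, together with Sdha, Sdhb, Sdhc, Sdhd and Cyc1. Symbols were taken from GENCODE M21 on GRCm38, and the rule used no measured value. It identified 94 of the 21911 protein-coding genes on chromosomes 1 to 19, X and Y. Of these, 44 belong to complex I, 4 to complex II, 9 to complex III, 20 to complex IV and 17 to complex V (ATP synthase). By class, 21 encode core subunits, 55 accessory subunits, 9 assembly factors and 8 tissue paralogues. The remaining gene, Atp5s, is named after ATP synthase but does not encode a subunit.

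Complex I (NADH dehydrogenase) and complex II (succinate dehydrogenase) pass electrons to ubiquinone, complex III (cytochrome bc1) passes them to cytochrome c, and complex IV (cytochrome c oxidase) passes them to oxygen. ATP synthase uses the proton gradient that complexes I, III and IV build. The same nuclear subunits are made in almost every cell type, but several subunits of complex IV also exist in forms made mainly in heart and skeletal muscle, lung or testis, each from a gene of its own. Acetylation of histone H3 at lysine 27 (H3K27ac) marks the nucleosomes beside active transcription start sites (TSSs) and at active enhancers, so a peak at a TSS is a common sign of an active promoter.

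H3K27ac was measured by chromatin immunoprecipitation sequencing (ChIP-seq) in KL cells, the lineage-negative, cKit-positive, Sca-1-negative myeloid progenitors of the bone marrow. The cells came from C57BL/6 mice of the genotype scl-Cre-ERT +; Bcorfl/y aged 3 to 6 months when given tamoxifen (1 mg daily over 5 days), and were taken 20 weeks later. Cre is driven by a stem cell enhancer of the Scl gene, so recombination takes place in haematopoietic stem cells and is inherited by their progeny, and it deletes Bcor exons 9 and 10 (BcorΔE9-10). Bcor is X-linked and encodes a subunit of a Polycomb repressive complex. The series lists 22 samples in 11 groups, of which the 3 BcorΔE9-10 H3K27ac libraries were analysed and the other 19 were not analysed here. BcorWT cells are not represented among these libraries, so nothing below compares genotypes, and what the deletion changes at these genes cannot be read from these values.

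The 3 libraries, called replicates 1, 2 and 3 as labelled, held 23410, 25963 and 23758 peaks at a recovered depth of 18.04, 18.92 and 19.26 M reads. The methods of the study count as many BcorΔE9-10 mice as there are libraries, but the labels do not tie a library to a mouse. No listed summit rested on fewer than 8, 8 and 9 fragments, and acetylation below that level is missing from the lists. All 6 progenitor markers examined (Kit, Gata2, Myb, Runx1, Spi1, Cebpa) had a TSS peak in every library. Of 5 markers of cells that the sort removes, 4 are reported here: Itgam, Ly6g and Ly6a had no TSS peak and Cd5 had a low peak in all 3 libraries. The muscle list (Ckm, Myh6, Myh7, Actn2, Mb, Ttn) had no TSS peak in any library. Of 6 testis markers only Dazl had one, in all 3 libraries, and of 4 lung epithelial markers only Sftpb had one, in replicate 2.

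A TSS peak is, throughout, a peak that comes within 2.5 kb of the start of a protein-coding transcript of the gene. Its fold enrichment is a ratio in which the signal at the summit is divided by the local background, as given by the authors' peak caller. Where a gene had several TSS peaks, the highest fold enrichment and the width of the widest peak were used. Fold enrichments were called for each library separately and are not scaled between libraries. Values for 3 libraries are given in the order of replicates 1, 2 and 3, and a mean carries its SD over the 3 libraries.

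Nearly all of the genes carried acetylated promoters in BcorΔE9-10 progenitors. A TSS peak was found in all 3 libraries for 84 of the 94 genes, against 43.4% of all protein-coding genes (9510 of 21911). Of the other 10, 3 genes had a peak in 2 libraries and 7 had none, against 50.8% of protein-coding genes with none. At least 2 libraries had a peak for 87 of the 94 genes, against 46.3% of protein-coding genes. Per library 84, 87 and 87 genes had a peak. Of the 86 genes that are not tissue paralogues, 84 had a peak in all 3 libraries and the other 2, Ndufa1 and Ndufb10, in replicates 2 and 3. The 7 genes without a peak were all tissue paralogues of complex IV.

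The acetylation at these promoters was close to the median of all promoters with a peak. The median fold enrichment over the genes with a peak was 10.3, 10.5 and 11.4, a mean of 10.7 ± 0.597 (SD, n = 3). The median over all protein-coding genes with a TSS peak was 9.07, 9.26 and 10.7. The ratio of both medians was 1.13, 1.13 and 1.06, so it was above 1 in each library. In rank, the median member stood at percentile 57.9, 57.8 and 54.3 of all genes with a TSS peak. The median width was 674, 687 and 700 bp, against 677, 713 and 735 bp for all genes, and the ratio was 0.995, 0.963 and 0.952. The ratios for fold enrichment and width are descriptions of medians, and no test was made of either.

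Set beside other housekeeping machinery, the ribosome and the proteasome, the respiratory genes had the lower medians. The 83 genes of cytosolic ribosomal proteins had median fold enrichments of 13.0, 12.0 and 15.2 and median widths of 875, 859 and 945 bp, and 80 of them had a peak in all 3 libraries. The 39 proteasome subunit genes had medians of 11.7, 11.3 and 13.0 and of 756, 753 and 754 bp, and 36 had a peak in all 3 libraries. Of the respiratory genes with a peak, 28.6%, 31.03% and 23.0% lay in the top 25% of all genes by fold enrichment, and 13.1%, 11.5% and 9.20% in the top 25% by width. For ribosomal protein genes these shares were 40%, 35.0% and 46.3% by fold enrichment and 35.0%, 23.8% and 26.3% by width. The bottom 25% held 10, 11 and 12 of the respiratory genes by fold enrichment and 12, 16 and 17 by width.

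**Figure D1:**
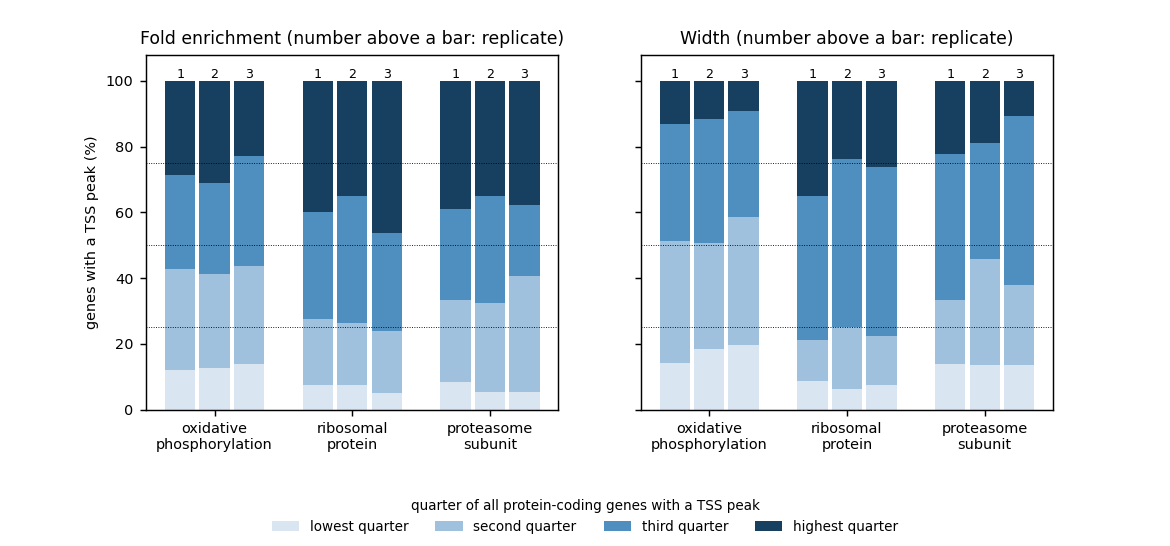
Share (%) of genes with a TSS peak that fell in each 25% range of all protein-coding genes with a TSS peak, by fold enrichment (left) and width (right), with 1 bar per library for the oxidative phosphorylation, ribosomal protein and proteasome subunit genes. Dotted lines mark 25%, 50% and 75%, where the borders would lie for a list spread like all genes. The respiratory genes hold 13.1%, 11.5% and 9.20% in the top 25% by width and 28.6%, 31.03% and 23.0% by fold enrichment.

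The genes differed among themselves by more than the libraries did. Over the 84 genes with a peak in every library, mean fold enrichment ran from 4.77 at Uqcr11 to 25.1 at Uqcrfs1. The SD of the gene means was 4.72, and the median SD of a gene over the libraries was 1.49. The median coefficient of variation over the libraries was 14.2% for fold enrichment and 12.4% for width, against 15.3% and 15.4% over all 9510 genes with a peak in every library. The order of the genes by fold enrichment was similar in the libraries, with Spearman's rho across genes of 0.873 (replicates 1 and 2), 0.841 (1 and 3) and 0.810 (2 and 3). These are descriptions across 84 genes measured in the same libraries, and genes are not independent replicates. Replicate 3 gave the highest fold enrichment at 53 of the 84 genes, and at 61.8% of all genes with a peak in every library.

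**Figure D2:**
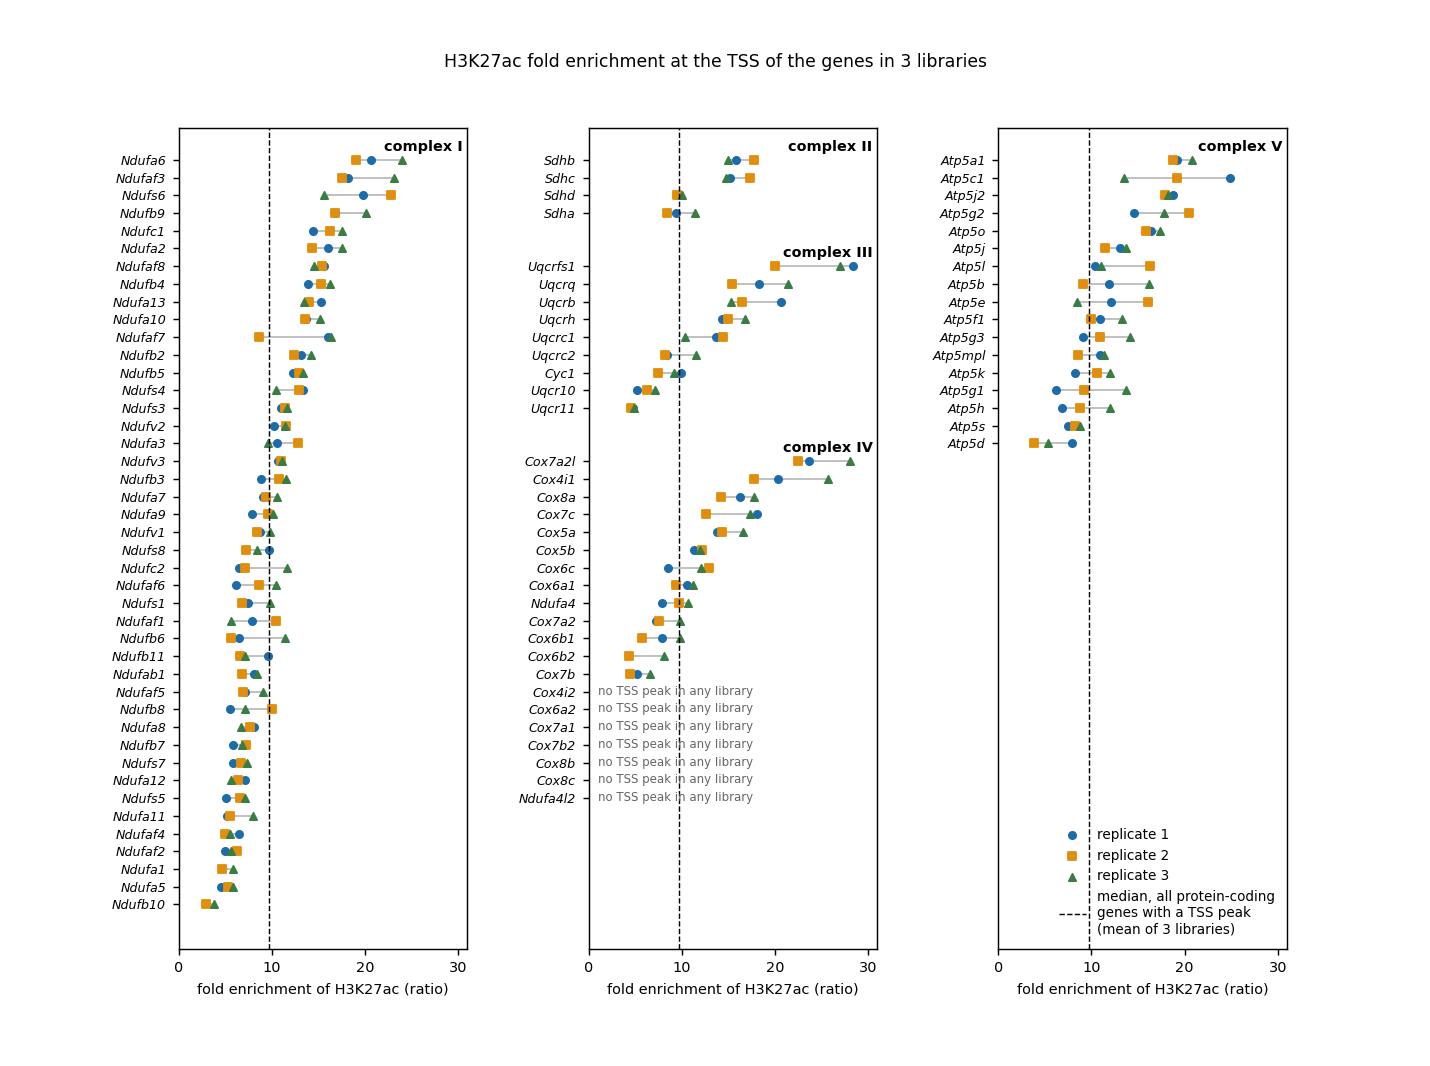
Fold enrichment of H3K27ac (ratio, x axis) at the TSS of the genes, by complex and in descending order of the mean, with 1 symbol per library and a grey line from the lowest to the highest library. The dashed line is the median of all protein-coding genes with a TSS peak (9.69, mean of 3 libraries), and 1 gene of complex I is not shown. Complexes II to V have most of their points to the right of the line, complex I is split by it, and the 7 genes without a peak are all in complex IV.

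The clearest contrast lay between the broad and the tissue-restricted forms of complex IV subunits, which were compared in 8 pairs. In each pair the broad form had a TSS peak in all 3 libraries. The restricted form had none in any library in 7 pairs. Cox4i1, the broad form of subunit 4, had fold enrichments of 20.4, 17.8 and 25.7, while Cox4i2, the lung form, had no peak. Cox8a had 16.3, 14.2 and 17.8, while Cox8b, the heart and skeletal muscle form of subunit 8, and Cox8c, its testis form, had no peak. All 3 libraries of these broad forms stood well above the median of all genes.

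The other broad forms were less enriched. Cox6a1 had 10.6, 9.34 and 11.3, and its heart and muscle counterpart Cox6a2 had no peak. Cox7a2 had 7.25, 7.53 and 9.77, and its heart and muscle counterpart Cox7a1 had no peak. These 2 broad forms lay on either side of the median of all genes. Ndufa4, once counted with complex I and now with complex IV, had 7.91, 9.71 and 10.7, and its hypoxia-inducible relative Ndufa4l2 had no peak. Cox7b, on the X chromosome, had the lowest values of the broad forms at 5.17, 4.50 and 6.64, and its testis counterpart Cox7b2 had no peak. Cox6b1 had 7.90, 5.75 and 9.83.

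Cox6b2, the testis form of subunit 6b, was the exception. It had no TSS peak in replicate 1, a peak of 360 bp with a fold enrichment of 4.30 in replicate 2, and a peak of 485 bp with 8.13 in replicate 3. These summits held 12 and 24 fragments. In both libraries Cox6b2 was lower than Cox6b1, by 5.75 against 4.30 and by 9.83 against 8.13. Of the 6 testis markers, Prm1, Prm2, Tnp1, Ddx4 and Sycp3 had no TSS peak in any library. The remaining testis marker, Dazl, had one in all 3 libraries, with 6.65, 5.56 and 7.19. When peaks had to reach a −log10 q of 5, Cox6b2 kept its peak in 1 library.

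The restricted forms without a peak were also far from the next peak. From the TSS of Cox7a1 the closest peak lay 10.1, 10.1 and 10.0 kb away, beside the start of Capns1, a calpain subunit gene. From Cox8b it lay 17.6, 17.6 and 17.7 kb away, at the start of the proteasome gene Psmd13, and from Cox8c 20.9, 20.4 and 20.9 kb away, closest to the start of Btbd7. At Cox7b2, on chromosome 5, it lay 619, 619 and 615 kb away, the furthest of all. For Cox6a2 the distance was 18.5, 30.97 and 25.8 kb, for Cox4i2 33.4, 14.6 and 12.4 kb, and for Ndufa4l2 33.8, 33.8 and 33.2 kb. Widening the window around the TSS to 5 kb therefore gave none of these genes a peak.

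**Figure D3:**
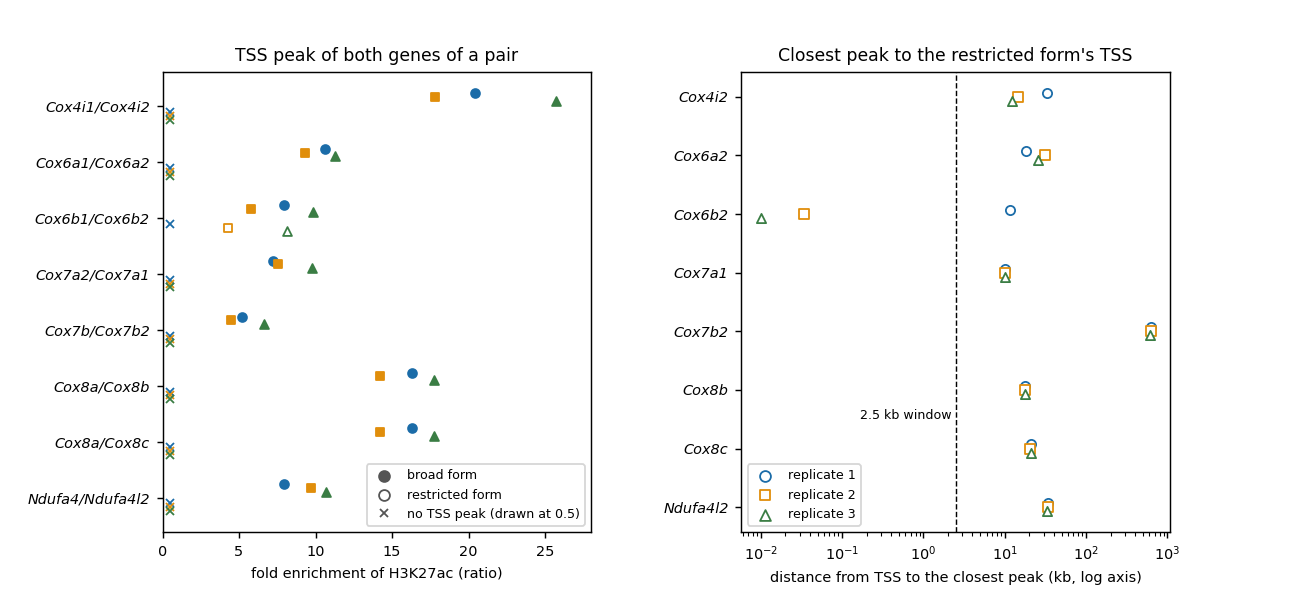
Left, fold enrichment of H3K27ac (ratio) at the TSS of the broad form (filled) and the restricted form (open) of 8 pairs in 3 libraries, with a cross at 0.5 where there was no TSS peak. Right, distance (kb, log axis) from the TSS of the restricted form to the closest peak in each library, with the 2.5 kb window dashed and a peak over the TSS itself drawn at 0.01 kb. Every broad form has 3 filled symbols, and among the restricted forms Cox6b2 alone has open symbols in the left panel.

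The promoter sequences of the pairs were set side by side where RefSeq (GRCm38.p6) windows were held for both genes and the peak was found in all 3 libraries for one and in none for the other. This applied to 3 pairs. The 250 bases before the annotated start are given 5′ to 3′ on the strand of the gene, with CG dinucleotides in capitals, because CpG-rich promoters are typical of housekeeping genes. The windows lie at chr9:79759854-79760103 and chr7:30183921-30184170 for subunit 7a, on the minus and the plus strand, at chrX:106015450-106015699 and chr5:71548206-71548455 for subunit 7b, on the plus and the minus strand, and at chr19:7217617-7217866 and chr7:140900447-140900696 for subunit 8, both on the minus strand.
Cox7a2: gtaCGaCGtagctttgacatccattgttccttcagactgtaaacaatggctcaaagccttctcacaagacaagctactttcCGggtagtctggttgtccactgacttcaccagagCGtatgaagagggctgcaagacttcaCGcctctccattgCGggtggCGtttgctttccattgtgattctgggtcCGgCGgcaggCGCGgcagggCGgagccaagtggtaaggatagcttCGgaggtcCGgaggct
Cox7a1: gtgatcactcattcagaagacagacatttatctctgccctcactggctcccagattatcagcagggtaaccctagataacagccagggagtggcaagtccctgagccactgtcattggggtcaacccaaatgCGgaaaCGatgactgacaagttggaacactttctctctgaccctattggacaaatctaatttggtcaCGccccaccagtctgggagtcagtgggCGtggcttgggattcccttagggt
Cox7b: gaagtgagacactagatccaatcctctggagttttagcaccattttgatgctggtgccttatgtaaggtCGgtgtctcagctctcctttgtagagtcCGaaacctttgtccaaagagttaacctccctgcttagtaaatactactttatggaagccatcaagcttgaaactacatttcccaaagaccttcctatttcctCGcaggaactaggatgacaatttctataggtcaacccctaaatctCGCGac
Cox7b2: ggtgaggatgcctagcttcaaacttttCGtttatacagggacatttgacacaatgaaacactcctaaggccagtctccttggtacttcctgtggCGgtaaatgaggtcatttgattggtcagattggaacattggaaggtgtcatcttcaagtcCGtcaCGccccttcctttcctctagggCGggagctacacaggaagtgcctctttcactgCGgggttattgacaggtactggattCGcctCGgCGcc
Cox8a: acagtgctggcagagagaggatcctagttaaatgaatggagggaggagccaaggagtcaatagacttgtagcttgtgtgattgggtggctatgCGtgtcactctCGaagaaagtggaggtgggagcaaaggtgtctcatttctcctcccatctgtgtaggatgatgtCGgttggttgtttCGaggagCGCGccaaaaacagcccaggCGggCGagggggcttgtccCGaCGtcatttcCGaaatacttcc
Cox8b: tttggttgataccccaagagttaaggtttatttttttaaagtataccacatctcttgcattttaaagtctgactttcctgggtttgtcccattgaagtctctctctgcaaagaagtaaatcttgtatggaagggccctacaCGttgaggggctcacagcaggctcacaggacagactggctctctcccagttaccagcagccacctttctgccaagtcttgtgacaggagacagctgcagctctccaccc

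The broad form was the richer in CG in 2 of these pairs. Cox7a2 held 14 CG dinucleotides and Cox7a1 held 4, and the ratio of observed to expected CpG was 0.751 and 0.244. Cox8a held 11 and Cox8b held 1, with ratios of 0.676 and 0.0726. The pair for subunit 7b ran the other way. Cox7b, acetylated in all 3 libraries, held 5 CG dinucleotides (ratio 0.431), and Cox7b2, with no peak, held 9 (ratio 0.568). A match between CpG content and acetylation therefore held for 2 of the 3 pairs shown.

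Complex I, the largest of the complexes, had the lowest median. Its 44 genes had a median fold enrichment of 8.96, 9.46 and 10.2, a mean of 9.55 ± 0.648 (SD, n = 3), and a median width of 628, 585 and 629 bp. The median fold enrichment was below that of all genes in replicates 1 and 3 and above it in replicate 2, and the median width was below it in all 3. Of the 42 complex I genes with a peak in every library, 15 were above the median fold enrichment of all genes in all 3 libraries and 14 were below it in all 3, that is 35.7% and 33.3%, against 43.5% and 36.6% of all genes with a peak in every library. The 7 core subunit genes, Ndufv1 and Ndufs3 among them, had a median of 8.73, 8.40 and 9.83. The 29 accessory subunit genes had 9.56, 10.0 and 10.5, and the 8 assembly factor genes 7.52, 8.60 and 9.70. Each class held genes on both sides of the median of all genes, with gene means between 6.63 and 11.4 for core subunits, 3.37 and 21.2 for accessory subunits and 5.61 and 19.6 for assembly factors.

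The most enriched complex I gene was Ndufa6, an accessory subunit gene on chromosome 15, with 20.7, 19.1 and 23.96. Ndufaf3, an assembly factor gene on chromosome 9, followed with 18.2, 17.5 and 23.2. The peaks with these values measured 376, 906 and 857 bp. Ndufaf3 also had separate upstream peaks among the widest, at 1088, 1141 and 1698 bp, with fold enrichments of 10.9, 11.9 and 12.4. The means of both genes, 21.2 ± 2.49 and 19.6 ± 3.10 (SD, n = 3), differed by less than their spread.

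Ndufs6, an accessory subunit gene on chromosome 13, ranked next with 19.8, 22.8 and 15.6, but these values came from another site. They belong to a peak between 2289 and 2427 bp upstream of the TSS, beyond the start of the mitochondrial ribosomal protein gene Mrpl36, which faces Ndufs6 across 51 bp. The peak at the Ndufs6 start itself had 5.80, 12.2 and 9.10. With a window of 1 kb the mean of Ndufs6 was 9.05 ± 3.22 in place of 19.4 ± 3.62 (SD, n = 3). Ndufs6 was the only one of the genes whose highest peak lay over 1 kb from every TSS, measured from the edge of the peak. Measured from the summit, this was also so at Uqcrh in every library and at Atp5f1 in replicate 3.

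At the lower end of complex I, Ndufa5, an accessory subunit gene on chromosome 6, had 4.56, 5.30 and 5.86, and the assembly factor gene Ndufaf2, on chromosome 13, had 4.92, 6.25 and 5.65. Their values lay below those of Ndufa6 and Ndufaf3 in every library. The genes at both ends were picked by the means of these same values, so a gap was built in. Ndufb10, an accessory subunit gene on chromosome 17, had no peak in replicate 1 and the lowest values of the 94 genes in replicates 2 and 3, at 2.92 and 3.82. It had no peak in any library when a −log10 q of 5 was required. It had a peak in all 3 libraries, at 10.4 ± 2.96 (SD, n = 3), when the starts of its transcripts that are not protein-coding were counted too, and at 13.1 ± 1.39 (SD, n = 3) with a window of 5 kb. The other 35 complex I genes with a peak in every library had means between 5.66 (Ndufaf4) and 17.9 (Ndufb9).

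Of the 94 genes, 3 are on the X chromosome, and in male cells each has 1 copy. Ndufa1, which encodes a small accessory subunit of complex I, had no peak in replicate 1 and 4.63 and 5.86 in replicates 2 and 3. Ndufb11, another accessory subunit gene of complex I, had 9.56, 6.62 and 7.16, and Cox7b is described with its pair. Except that of Ndufb11 in replicate 1, all values of the 3 genes were below the median of all protein-coding genes in their library. The 948 protein-coding genes of the X chromosome had medians of 7.51, 7.19 and 8.13, also below the medians of all genes. When each peak was given only to the gene with the closest start, Ndufa1 lost its peaks to Rnf113a1, which starts 82 bp away on the opposite strand, and Ndufb11 kept a peak in 1 library, the others going to Rbm10, 3 bp away.

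Complex II has 4 nuclear genes, and all of them had a peak in each library, with a median of 12.4, 13.4 and 13.1. Sdhb, which encodes the iron-sulphur subunit, had 15.8, 17.8 and 15.0, and Sdhc, which encodes a membrane anchor, had 15.2, 17.4 and 14.7. Sdha, which encodes the flavoprotein, had 9.35, 8.40 and 11.4, and Sdhd, the gene of the other anchor, had 9.63, 9.53 and 10.1. In each library Sdhb and Sdhc were above both of the others, so the split did not follow the division into catalytic and anchor subunits. The highest peak at Sdhd lay upstream of its start in each library, on the side of Timm8b, which starts 98 bp away on the opposite strand. With peaks given only to the gene with the closest TSS, the mean of Sdhd was 7.80 ± 0.762 in place of 9.74 ± 0.286 (SD, n = 3).

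The 9 genes of complex III had the highest median in replicates 1 and 2, with 13.7, 14.4 and 11.6. Complex III contained both the most and the least enriched of the genes with a peak in every library. Uqcrfs1, which encodes the Rieske iron-sulphur protein, had 28.4, 20.0 and 27.03, from peaks of 809, 681 and 740 bp at its start (gene at chr13:30540308-30545362, minus strand). Uqcr11, which encodes a small accessory subunit and lies at chr10:80402997-80406830, had 4.78, 4.601 and 4.92, with an SD of 0.159. The values of Uqcrfs1 and Uqcr11 did not approach each other, but both genes were picked as the extremes of these values. Uqcrq and Uqcrb, also genes of small accessory subunits, had 18.3, 15.4 and 21.5 and 20.7, 16.5 and 15.3. Uqcr10, a further gene of this kind, had 5.19, 6.25 and 7.16. Cyc1, which encodes cytochrome c1, had 9.90, 7.501 and 9.13, around the median of all genes. Uqcrc1 and Uqcrc2, the genes of the pair of large proteins on the matrix side, had means of 12.8 ± 2.15 and 9.40 ± 1.88 (SD, n = 3).

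Uqcrh, the gene of the hinge protein of complex III, had the widest peaks of all the genes. They measured 2386, 1964 and 2866 bp, a mean of 2405 ± 451 (SD, n = 3), and its fold enrichments were 14.3, 15.0 and 16.8. In replicate 3 the peak ran over chr4:116074409-116077274, past the Uqcrh start and past the start of Lrrc41, which faces it across 198 bp. In replicate 2 a shorter peak of 324 bp over the Uqcrh start was separate from the wide one on the side of Lrrc41. That shorter peak had a fold enrichment of 7.29. With peaks given only to the closest gene, the mean width at Uqcrh was 1859 ± 1351 bp (SD, n = 3). The mean fold enrichment was then 12.8 ± 4.92 (SD, n = 3). Next came Ndufa13, an accessory subunit gene of complex I on chromosome 8. It had 1477, 1426 and 1474 bp, a mean of 1459 ± 28.6 (SD, n = 3). Ndufaf3 followed with 1309 ± 338 bp (SD, n = 3). Its peak with the highest fold enrichment was narrower, at 713 ± 293 bp (SD, n = 3). The narrowest were at the assembly factor gene Ndufaf4, with 286, 318 and 238 bp. Mean width and mean fold enrichment rose together across the 84 genes (Spearman's rho 0.617, a description over genes of the same libraries).

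**Figure D4:**
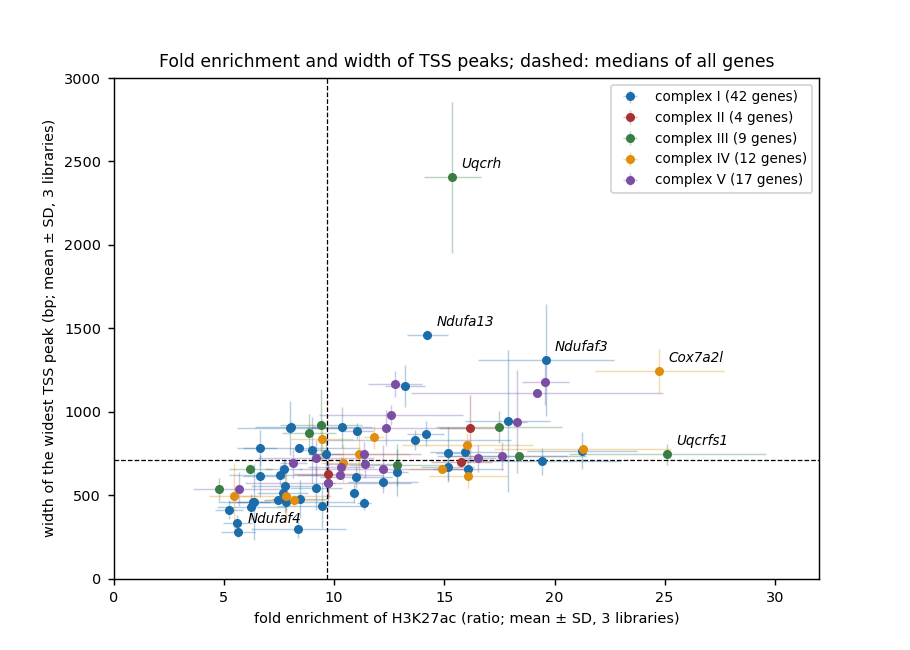
Mean fold enrichment (ratio, x axis) and mean width of the widest TSS peak (bp, y axis) of the 84 genes with a TSS peak in all 3 libraries, coloured by complex, with bars for the SD over 3 libraries. Dashed lines are the medians of all protein-coding genes with a TSS peak (9.69 and 708 bp). Uqcrh stands alone at 2405 bp, and no other gene has a mean above 1459 bp.

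In complex IV the most enriched gene was Cox7a2l, which encodes a respiratory supercomplex factor related to Cox7a2. It had 23.7, 22.5 and 28.1 from peaks of 1266, 1101 and 1360 bp (gene at chr17:83501918-83517330). Its mean of 24.8 ± 2.94 (SD, n = 3) was within the spread of that of Uqcrfs1, 25.1 ± 4.48. Cox4i1 and Cox8a followed, with the values given for the pairs, and Cox6b1 and Cox7b were the lowest genes with a peak in every library. The other 4 such genes, Cox5a, Cox5b, Cox6c and Cox7c, had means between 11.2 (Cox6c) and 16.03 (Cox7c). The 11 subunit genes without the tissue paralogues had a median of 10.6, 12.2 and 12.0.

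All 17 complex V genes had a peak in every library, with a median of 10.9, 10.9 and 13.5. Atp5a1, the gene of the catalytic head's alpha subunit, had 19.2, 18.8 and 20.8, and Atp5j2, the gene of a small membrane subunit, had 18.8, 17.9 and 18.2. Atp5c1, the gene of the gamma subunit, had 24.9, 19.2 and 13.5, the widest range of the 3. At the lower end were Atp5s, with 7.51, 8.201 and 8.74, and Atp5d, with 7.90, 3.80 and 5.31. Atp5d is the gene of the delta subunit of F1, the catalytic part of the enzyme. Atp5d was thus low although 4 other genes of F1, Atp5a1, Atp5b, Atp5c1 and Atp5e, had means of 12.2 or more. Left out next are the 5 genes with values given above and the 3 genes of subunit c. The other 9 genes of complex V, Atp5b and Atp5e among them, had means between 9.17 (Atp5h) and 16.5 (Atp5o).

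The c ring of ATP synthase is unusual in that 3 genes encode the same mature protein and differ in the part that is cut off on import. Atp5g2 had 14.6, 20.5 and 17.8, Atp5g3 had 9.04, 10.9 and 14.1, and Atp5g1 had 6.22, 9.20 and 13.7. Atp5g2 was the highest and Atp5g1 the lowest of the 3 in every library. The means of Atp5g1 and Atp5g3, 9.71 ± 3.78 and 11.4 ± 2.57 (SD, n = 3), lay within their spread.

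The TSS peaks of the genes had a common shape. The summit of the highest peak lay a median of 147, 148 and 155 bp downstream of the closest TSS, against 151, 152 and 150 bp over all genes, and it was downstream at 77.4%, 75.9% and 74.7% of the genes with a peak, close to the 74.2%, 74.7% and 74.2% over all genes. The TSS itself was covered by a peak at 51.2%, 58.6% and 57.5% of them, against 60.1%, 63.4% and 65.5% over all genes. A TSS between 2 peaks, and inside neither, was found at 27, 31 and 33 genes, or 32.1%, 35.6% and 37.9%, against 27.5%, 27.9% and 26.9% of all genes with a peak. At 17 genes this was so in all 3 libraries. Leaving out Ndufs6, whose second peak is the distant one, the gap between both peaks at the other 16 genes measured between 91 and 481 bp. At Cox4i1 it was 190, 159 and 150 bp, at Ndufa6 213, 226 and 273 bp, and at Atp5c1 159, 149 and 179 bp.

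Many of the genes share their promoter with a gene on the opposite strand. A protein-coding TSS within 1 kb upstream on the other strand was present for 31 of the 94 genes (33.0%), against 2161 of all 21911 protein-coding genes (9.86%). Among genes with a TSS peak in all 3 libraries the shares were 30 of 84 (35.7%) and 1875 of 9510 (19.7%). The distance was at most 200 bp for 26 of the 31, with a median of 98 bp. Partners included genes of other mitochondrial proteins, such as Mrpl36 at Ndufs6 and Timm8b at Sdhd, and of the cytosolic translation machinery, such as Rps28 at Ndufa7 (10 bp) and Eef1b2 at Ndufs1 (3 bp). Atp5j faced Gabpa at 686 bp, and Gabpa encodes the DNA-binding subunit of an ETS factor known to bind promoters of respiratory genes. Both genes took their values of 13.1, 11.4 and 13.8 from the same peak, so those are 1 measurement and not 2. Genes with a partner had median fold enrichments of 9.45, 9.53 and 11.1, and genes without one 10.6, 10.8 and 11.5. Over all protein-coding genes the order was the other way, with 10.3, 10.4 and 12.0 for those with a partner and 8.79, 9.001 and 10.4 for those without. Some did not share their highest peak with the partner. Phf14, which starts 312 bp from a start of Ndufa4, had 15.6, 14.7 and 17.5. The peak with these values lay over 2.5 kb from every Ndufa4 start used here. Wdr4, which starts 135 bp from a start of Ndufv3, had 21.0, 15.0 and 15.8, also at a peak outside that window of Ndufv3. Ndufv3 itself had 10.6, 11 and 11.1. The highest peak was also a TSS peak of another protein-coding gene, in each library, for 36 of the 84 genes (42.9%), against 26.9% of all genes with a peak in every library.

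Promoter windows of 300 bases (250 before the start and 50 after, RefSeq GRCm38.p6) were held for 74 of the 94 genes, in 79 windows because 5 genes had 2. The genes without one included Atp5a1, Atp5f1, Atp5mpl, Atp5s, Cox4i1, Cox4i2, Cox6a2, Cox6c, Cox8c, Cyc1, Ndufa2, Ndufa4l2, Ndufaf6, Ndufb9, Ndufs1, Sdhc, Uqcrb, Uqcrc2 and Uqcrq. The median ratio of observed to expected CpG was 0.828, against 0.588 over the 20150 windows of 16522 protein-coding genes, 0.791 over windows of genes with a TSS peak in all 3 libraries and 0.278 over windows of genes with none. The ratio exceeded 0.6 in 66 of the 79 windows (83.5%), against 49.1% of all windows and 75.3% of those of genes with a peak in every library. The 13 windows at or below 0.6 included Cox6b2, Cox7a1, Cox7b2 and Cox8b, but also Atp5j2, Sdhb, Ndufb2 and Cox7b, which had a peak in every library. The median content of G and C was 57.7%, against 57.0% over all windows.

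A short motif search was made in the same windows on both strands. The letters were CGCNTGCG for the core of the site of NRF1 (nuclear respiratory factor 1), CCGGAAG for the core of the sites of ETS factors such as GABP, AAGATGGC for YY1, GGGCGG for the GC box, CCAAT for the CCAAT box and TATAAA for the TATA box. NRF1, GABP and YY1 are known as regulators of respiratory genes. The NRF1 core was found in 31 of the 79 windows (39.2%), against 11.6% of all windows and 18.9% of the windows of genes with a TSS peak in all 3 libraries. The ETS core was in 18 windows (22.8%), against 11.9% and 20.6%. The YY1 core was in 10 (12.7%), against 3.11% and 5.20%. A window with an NRF1 or an ETS core was found in 53.2% of cases, against 21.2% of all windows and 35.3% of those of genes with a peak in every library. The promoters of ribosomal protein and proteasome genes were similar in that share, with 49.3% and 50%. They held the NRF1 core in 20% and 20.6% of windows, the ETS core in 36% and 32.4%, and the YY1 core in 10.7% and 8.82%.

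The NRF1 core was spread unevenly over the complexes. It was in 10 of 16 windows of complex V, 3 of 5 of complex III, 2 of 3 of complex II, 15 of 41 of complex I and 1 of 14 of complex IV, where Cox6a1 was the only gene. Of the 10 windows with a YY1 core, 8 were of complex I. The GC box was in 43.0% of windows, against 47.8% of all windows and 64.3% of those of genes with a peak in every library. The TATA box was in 10.1%, or 8.22% for the genes with a peak in every library, against 12.2% and 6.38%. Fold enrichment overlapped widely between genes with and without a motif. The median of the gene means was 9.72 (quartiles 6.27 and 12.8) over the 27 genes with the NRF1 core and a peak in every library, and 11.4 (8.40 and 14.9) over the 41 such genes without it. For the YY1 core the medians were 12.5 with and 10.3 without, and for the CCAAT box 11.8 and 9.68.

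To show the core in its place, 30 bases around it are given for the most enriched gene of each complex in which this stretch lay before both the RefSeq and the GENCODE start, with the 8 bases of the core in capitals. No gene of complex III met this. The stretches lie at chr16:37654540-37654569 (Ndufb4, complex I), chr9:50603909-50603938 (Sdhd, complex II), chr5:115349056-115349085 (Cox6a1, complex IV) and chr11:115420041-115420070 (Atp5h, complex V), each written 5′ to 3′ on the strand of the gene, which is the minus strand, with coordinates on GRCm38.p6.
Ndufb4: gagaagcagtgCGCACGCGcagaatacgcg
Sdhd: tcgctggggtgCGCACGCGcggtggcagcg
Cox6a1: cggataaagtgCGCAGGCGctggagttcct
Atp5h: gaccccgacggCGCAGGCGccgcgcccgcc

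Counted from the RefSeq start, which can differ from the GENCODE start used for the peaks, the core begins 190 bases upstream in Ndufb4, 78 in Sdhd, 116 in Cox6a1 and 140 in Atp5h. In all 4 the match is on the opposite strand, so that it reads CGCANGCG here. A match is a description of letters and was not tested as a binding site.

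**Figure D5:**
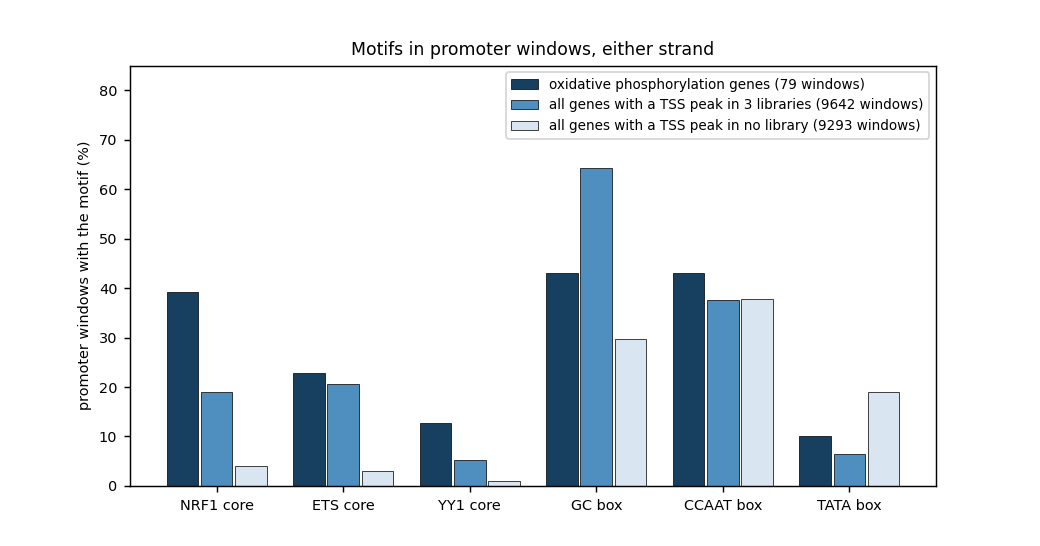
Share (%) of promoter windows that hold each motif on either strand, for the oxidative phosphorylation genes (79 windows), all protein-coding genes with a TSS peak in all 3 libraries (9642 windows) and all with a TSS peak in none (9293 windows). The NRF1 core is in 39.2%, 18.9% and 4.12% of windows, the YY1 core in 12.7%, 5.20% and 1.09%, and the GC box in 43.0%, 64.3% and 29.7%.

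The genes that build and regulate the complexes had TSS peaks about as often. Of 37 genes of assembly factors outside the symbol rule, 36 had a TSS peak in all 3 libraries, with a median fold enrichment of 9.55, 9.67 and 11.2. The exception was Cox19, which had none. The highest of them, picked after the values were seen, were Coa5, with 32.7, 27 and 28.3, Sdhaf2, with 27.98, 31.4 and 34.4, and Higd1a, with 29.0, 28.1 and 34.0. These act in complex IV assembly, in the attachment of the flavin of Sdha and in supercomplexes.

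Cycs, the gene of the somatic cytochrome c, had 9.97, 10.2 and 13.4, and Cyct, the gene of the testis form, had no peak, which repeats the contrast seen for the complex IV pairs. Of 18 genes that regulate respiratory genes or maintain mitochondrial DNA, 16 had a peak in all 3 libraries. The transcription factor genes Nrf1, with 26.5, 26.1 and 35.2, Yy1, with 25.1, 18.4 and 32.2, and Gabpb1, with 26.7, 21.6 and 25.99, were the highest of them, also picked after the values were seen. Tfam, the gene of the main packaging protein of mitochondrial DNA, had 6.995, 7.001 and 4.92, below the medians of all genes in each library. Polrmt, the gene of the mitochondrial RNA polymerase, had no TSS peak. Ppargc1a, the gene of a coactivator best known from muscle and brown fat, had a peak in replicate 1 alone (4.10), while its relatives Ppargc1b and Pprc1 had peaks in all 3 libraries.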

How the data were processed

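H3K27ac ChIP-seq of BcorΔE9-10 KL cells was analysed from the peak lists of 3 libraries, each called separately by the authors. Per the submitters' processing notes and the study's methods, reads were handled with FastQC, cutadapt 1.7, Bowtie2 on GRCm38/mm10, deepTools 2.5.3 and MACS2 2.1.1. Duplicate reads had been removed. The background library and settings of the peak calling are not given in the sources used here. The deposited values are the fold enrichment at the summit (a ratio to local background), its −log10 p-value and q-value, and a score, which is 10 times the −log10 q. The least significant peaks had a q of 0.0488, 0.0498 and 0.0499.

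Peaks were assigned to each gene with a TSS of a protein-coding transcript (GENCODE M21) within 2.5 kb of the peak, so neighbouring genes can share a peak. A gene with no peak may carry acetylation below the threshold, and no interval or counting floor can be given for it. Fragments at each summit were solved from fold enrichment and p-value, for 100% of peaks, taking a match within 0.001 fragments. The depth of the library came from the same solution, but rests on an assumed fragment length of 200 bp and an assumed genome size. The reads carry no molecular identifiers, so the fragment numbers need not equal distinct molecules, and counting error is not their whole error. Calculations used Python 3.11.15, numpy 2.4.6, scipy 1.17.1 and matplotlib 3.10.9, and the scripts were tested on simulated data.

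With 1 group and 3 libraries no test between groups was possible, and no test was made. Since the labels do not tie libraries to mice, the SD measures the spread between these libraries, which may be technical. The members and lists were chosen with earlier results of these data known. Values were given by rule for, per complex, the 3 genes with the highest and the 2 with the lowest mean fold enrichment, the 3 widest, every gene without a peak in all 3 libraries, the paralogue pairs, the genes on X, Sdha to Sdhd, Cyc1 and the genes of subunit c. Other genes named were picked after their values were seen. The alternatives were windows of 1 and 5 kb, a −log10 q of at least 5, the starts of all transcripts, the closest gene only, other summaries of several peaks, other reaches for divergent partners and leaving out each library. Promoter and motif counts used RefSeq windows on GRCm38.p6, matched by gene symbol. Values of 1 gene and 1 marker are not reported here.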

Additional observations from a re-analysis of the deposited data

How the results depend on the processing

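Of 82 recomputed counts, medians and ratios, 71 stayed within 1.5 times the count or 1 SD of the value given, and none changed direction. The 11 that moved were all medians or ratios. The tolerance for counts was wide, and a count such as 84 of 94 genes cannot rise by 1.5 times. The share of 71 of 82 is therefore not a measure of stability. Some of the 82 were medians and ratios recomputed with a library left out. Leaving out a library cannot shift a mean over the libraries by 1 SD, so those entries had to stay within it. They therefore say nothing about stability. Counting the mean over all TSS peaks in place of the highest lowered the median fold enrichment of the genes from 10.7 to 9.17. Their median width, 687 bp, became 704 bp with a window of 5 kb, 701 bp at a −log10 q of at least 5, 704.0 bp with the starts of all transcripts, 659 bp with peaks given only to the closest gene and 884 bp when all TSS peaks were summed. The fold enrichment ratio to all genes, 1.11, became 1.05 at a −log10 q of at least 5. The width ratio, 0.970, became 0.939 at that threshold, 0.993 with the starts of all transcripts, 0.947 with summed peaks and 0.999 with the width of the highest peak.

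The number of genes with a peak in all libraries was 78 with peaks given only to the closest gene. The number with a peak in no library was then 9 in place of 7. The genes added were the complex I genes Ndufa1 and Ndufa11, whose peaks went to Rnf113a1 and Vmac. At a −log10 q of at least 5 the number with none was 8, Ndufb10 being added. Leaving out 1 library gave 84 to 87 genes with a peak in the remaining libraries, 7 with none, 1 tissue paralogue with a peak, 9649 to 9836 protein-coding genes with a peak in both, a median fold enrichment of 10.4 to 10.9, a median width of 680 to 694 bp, a fold enrichment ratio of 1.097 to 1.133 and a width ratio of 0.958 to 0.979. Replicate 1 decided the count of 84, which was 87 without it. With the mean over TSS peaks, the fold enrichments of 15 of 37 named genes moved by more than their SD. With all TSS peaks summed, the widths of 22 of 37 did. No paired analysis was possible because the 3 libraries form a single group. Acetylation too weak to be called, at under about 8 fragments at the summit, is beyond these lists.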
